A study of Glycine max with 8 samples.

Results

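The 100 most abundant transcripts of soybean (Glycine max) nodules, apart from 4 leghemoglobin genes, are described here. They were chosen by their level: genes were ordered by mean FPKM (counts scaled by gene length and by the library total) over all 8 libraries, the 4 genes that the selection rule names as leghemoglobins were set aside, and the 100 highest of the remaining genes were kept. They are 100 of 43517 genes in the count table and of 39910 with an FPKM. Nodule RNA came from plants grown with low nitrogen application. Group BR had received the strains labelled Bac.B and Bra.Q2, and group R had received Bra.Q2 alone, so that Bra.Q2 and low nitrogen are common to both. There are 4 libraries per group, numbered BR1 to BR4 in one and R1 to R4 in the other. The labels do not say if a library holds 1 plant or pooled nodules, or if replicates were grown as separate plants; the p-values reflect how these 8 libraries scatter, and that scatter may be technical.

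Nodules are root organs in which a legume houses rhizobia inside its own cells. The bacteria reduce nitrogen gas to ammonium, and the plant supplies carbon and keeps free oxygen low with leghemoglobin, an oxygen-binding protein that infected cells make in great amounts. Transcripts made mainly in nodules were named nodulins, and several of them belong to the most abundant messenger RNAs of the organ. Bulk RNA does not separate fewer cells of a type from less RNA per cell.

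The identifiers are those of annotation Wm82.a2.v1 (a suffix that all of them carry in the files and that is left off here). The deposited files do not pair them with gene names, and 0 of the 100 members matched the reference gene table, so no gene function is given. For the same reason identifiers are printed for at most 2 members per direction of change, and other changed members are called by their rank in mean FPKM. The chromosome is read from the identifier.

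The 4 leghemoglobins, which mark infected cells, were at the top of the table: their mean FPKM ranked 1, 2, 3 and 5 of all genes. Together they held 12.4% ± 1.72 of the summed FPKM in BR and 11.9% ± 2.02 in R (SD, n = 4 each). None of the 4 passed the test between BR and R, with log2 fold changes (BR over R) of -0.39 to 0.25 and adjusted p-values of 0.22 to 0.764 (edgeR quasi-likelihood test, Benjamini-Hochberg adjustment over all 29508 tested genes). Library totals were 15133989 to 17287964 counts in BR and 14223489 to 15266510 in R. Each member had at least 1978 counts in every library, where counting error alone is 2.25% of the value. FPKM are scaled by the library total alone, while the test used TMM factors (trimmed mean of M-values, which set the bulk of genes equal), of 1.05 to 1.1 in BR and 0.913 to 0.951 in R, so a log2 fold change as printed lies below the log2 ratio of the FPKM beside it.

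Levels fell steeply with rank. The first member averaged 16339 FPKM and the last 479 FPKM, a ratio of 34.1, whereas the median gene of the FPKM table had 2.36 FPKM. The mean was above 5000 FPKM in 7 members and above 1000 FPKM in 44. The 12 highest members held 50% of the FPKM summed over all 100. The members, 0.251% of the genes with an FPKM, held 24.2% ± 1.02 of the summed FPKM in BR and 24.5% ± 1.54 in R (SD, n = 4 each), with overlapping ranges of 22.9% to 25% and 23% to 25.9%. The rule used these levels, so they carry no test. The share by library was 22.9%, 23.9%, 24.9% and 25% in BR1 to BR4, against 25.9%, 25.7%, 23% and 23.4% in R1 to R4; R1 and R2 were the highest of all, and R3 and R4 lay within the BR range.

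**Figure D1:**
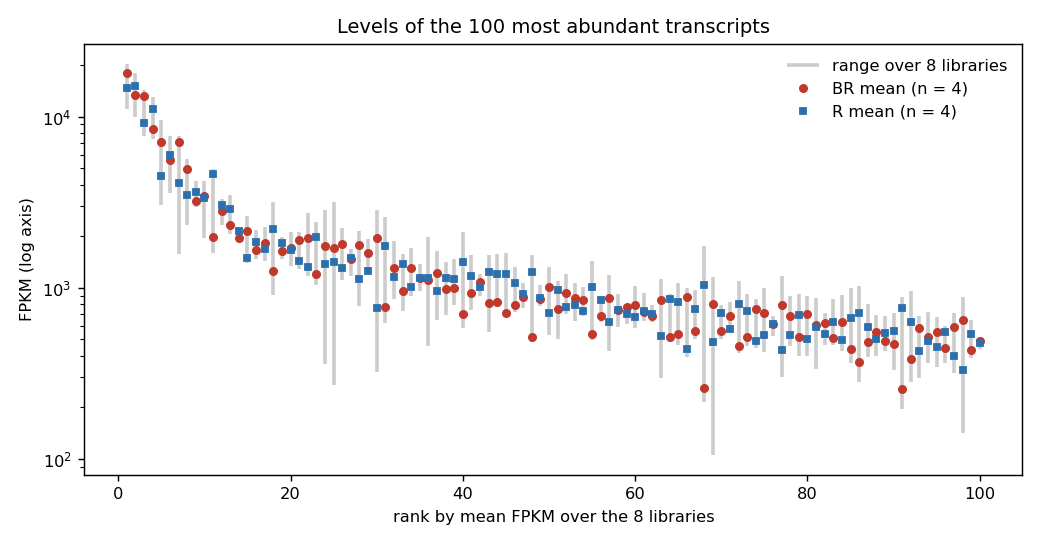
FPKM on a log axis of the 100 members by their rank in mean FPKM, with BR means and R means (n = 4 each) as points and the range over 8 libraries as a grey bar. Levels run from 16339 FPKM at rank 1 to 479 FPKM at rank 100, and for most members the BR and R means lie close together within the range.

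The most abundant member was Glyma.20G024200, on chromosome 20. Its FPKM was 14381, 18086, 19100 and 20420 in BR1 to BR4, against 18347, 17278, 12011 and 11091 in R1 to R4. R3 and R4 were the lowest of the 8, R1 and R2 lay inside the BR range, and the log2 fold change of 0.09 (SE 0.24) did not pass (edgeR adjusted p = 0.815). Glyma.13G328800, on chromosome 13, came second with 9998, 14041, 14372 and 14876 FPKM in BR1 to BR4, against 17878, 15079, 13940 and 13492 in R1 to R4. The groups overlapped by FPKM, while on the TMM scale each BR library was below each R library. The log2 fold change was -0.38 (SE 0.21, adjusted p = 0.222 by edgeR).

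Glyma.13G364400 and Glyma.15G045000, at ranks 3 and 4, had FPKM ranges that did not overlap between the groups, in opposite directions. Glyma.13G364400 had 11345, 14370, 13674 and 13600 FPKM in BR1 to BR4, against 10067, 9166, 10028 and 7677 in R1 to R4, so that by FPKM each BR library was above each R library, while the groups overlapped on the TMM scale of the test. Its log2 fold change of 0.32 (SE 0.19) did not pass (edgeR adjusted p = 0.262). Glyma.15G045000, on chromosome 15, had 7399, 8254, 8754 and 9265 FPKM in BR1 to BR4, against 11432, 12977, 10245 and 9670 in R1 to R4. Each BR library was below each R library, and its log2 fold change of -0.59 (SE 0.18) had an edgeR adjusted p of 0.0502, just outside the threshold. It passed in 3 of 21 alternatives: DESeq2 (0.000389), limma-voom (0.0334) and a stricter filter on low counts (0.0491). In the other 18 it did not pass, with an adjusted p of up to 0.676 (limma on log2 FPKM). None of the 10 highest members passed in the main test, where 18.3% of all tested genes did. Beside that share, 10 genes are too few to set them apart as unchanged. Their log2 fold changes ran from -0.59 to 0.58, and their adjusted p-values from 0.0502 to 0.815.

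The remaining 6 of the first 10 differed in which libraries stood out. Glyma.02G265200, on chromosome 2, had 6867, 4993, 6912 and 9611 FPKM in BR1 to BR4, against 5625, 6110, 3296 and 3039 in R1 to R4. Glyma.10G214500, on chromosome 10, had 4762, 4039, 5376 and 5642 FPKM in BR1 to BR4, against 3656, 5061, 2324 and 2883 in R1 to R4. Both were lowest in R3 and R4, as was Glyma.14G052400 at rank 7, described further on. Glyma.08G131900, on chromosome 8, had 3584, 4538, 7679 and 6404 FPKM in BR1 to BR4, against 7354, 6829, 4691 and 4827 in R1 to R4, so that each group held both high and low libraries. Glyma.08G250300, also on chromosome 8, had 3358, 2958, 3256 and 3357 FPKM in BR1 to BR4, against 4223, 3072, 3366 and 3898 in R1 to R4. By FPKM its groups overlapped through R2 alone, while on the TMM scale each BR library was below each R library. Glyma.17G230500, on chromosome 17, had 4044, 1949, 3435 and 4218 FPKM in BR1 to BR4, against 4025, 2418, 3356 and 3596 in R1 to R4, with the lowest value of each group in replicate 2.

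With Bac.B added, 20 of the 100 members were lower and 1 was higher. Read against all tested genes, the 21% of members called is close to the 18.3% called over all genes, but the directions were divided otherwise: 10.3% of all tested genes were lower and 7.98% higher. The median log2 fold change was -0.2 over the members and -0.02 over all tested genes, and 64 of 100 members had a value below 0, against 51.2% of tested genes. The members share this with the transcripts that follow them in level. Of the next 100 genes in rank, 24 were lower and 1 was higher.

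The scaling between libraries bears on these counts. Relative to TMM, upper-quartile factors raised the median of all genes by 0.11 and total counts alone by 0.19. With upper-quartile factors 13 members were lower and 1 was higher, against 7.79% and 10.6% of all tested genes. With total counts 12 members were lower and 3 were higher, against 5.89% and 14.5% of all tested genes. The share of calls that were higher in BR was thus 4.76% in the members and 43.5% in all genes with TMM, 7.14% and 57.7% with upper-quartile factors, and 20% and 71.2% with total counts. The distance of the members' median from that of all genes was -0.19 with TMM, -0.18 with upper-quartile factors and -0.19 with total counts. Leaving out single libraries lowered or raised the count of lower members and that of all genes. When BR1, BR2, BR3 or BR4 was dropped, 16, 13, 8 and 9 members were lower, where 6.57%, 8.36%, 5.16% and 5.31% of all tested genes were lower. When R1, R3 or R4 was dropped, 13, 11 and 14 members were lower, against 7.47%, 6.55% and 6.26% of all tested genes. Without R2, 23 members were lower and 3 higher, against 12.9% and 11.5% of all tested genes.

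**Figure D2:**
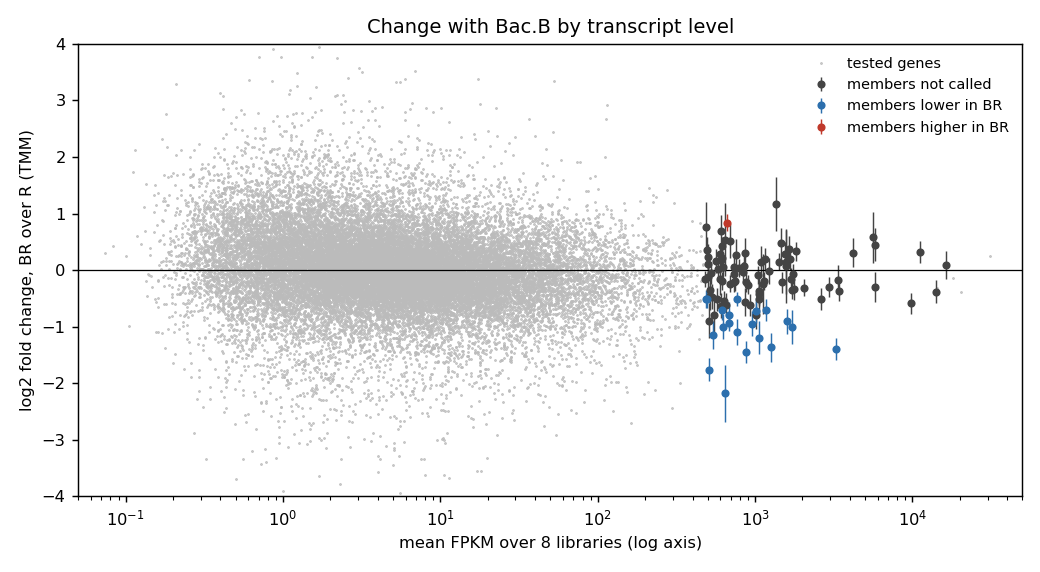
Log2 fold change of BR over R with TMM scaling (y axis) against mean FPKM over 8 libraries (log x axis), for tested genes in grey and the 100 members with their standard errors, coloured by call at an adjusted p below 0.05. The 20 members lower in BR reach down to -2.18, and a single member is marked as higher; genes with a change beyond 4 in either direction fall outside the axis.

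Among the lower members the log2 fold changes ran from -2.18 to -0.51, and 9 were at least 2-fold lower. They began at rank 11, with 9 of them among ranks 11 to 50 and 11 among ranks 51 to 100. They lay on 12 chromosomes and 1 unplaced scaffold. Chromosome 13 held 5 of its 10 members among them, and chromosome 4 held 3 of its 5. The share of all tested genes called lower on these chromosomes was not compared. Summed, the 20 lower members took up 2.62% ± 0.0889 of a BR library's counts and 4.85% ± 0.823 of an R library's (SD, n = 4 each). By library this was 2.6%, 2.61%, 2.74% and 2.53% in BR1 to BR4, against 4.57%, 3.94%, 5% and 5.9% in R1 to R4. The BR libraries lay close together, and R3 and R4 were the highest. These members were picked for being lower, so their sum carries no test.

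The largest fall was that of Glyma.04G147700, on chromosome 4 and at rank 68. It had 313, 215, 255 and 255 FPKM in BR1 to BR4, against 501, 300, 1585 and 1753 in R1 to R4. R3 and R4 were far above all other libraries, and R2 lay below BR1 by FPKM, while on the TMM scale each BR library was below each R library. Its log2 fold change was -2.18 (SE 0.5, adjusted p = 0.0168 by edgeR). Without R3 and R4 it was -0.82 and no longer passed (edgeR adjusted p = 0.0657), nor did it pass without BR3 (0.0525) or without BR4 (0.0508). Over its 21 alternatives the adjusted p ran from 7.5e-05 to 0.0719.

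Glyma.02G228100, on chromosome 2 and at rank 91, fell without overlap. It had 195, 330, 268 and 234 FPKM in BR1 to BR4, against 763, 783, 612 and 880 in R1 to R4. The highest BR library, at 330 FPKM, was below the lowest R library, at 612 FPKM. Its log2 fold change was -1.76 (SE 0.2, adjusted p = 0.0013 by edgeR), and it passed in all 21 alternatives with log2 fold changes of -1.91 to -1.56.

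The most abundant of the lower members stood at rank 11, on an unplaced scaffold. It had 1804, 2369, 2188 and 1597 FPKM in BR1 to BR4, against 4942, 4939, 3897 and 4573 in R1 to R4. No BR library came near the R range. Its mean was 1989 ± 352 FPKM in BR and 4588 ± 492 in R (SD, n = 4 each), with a log2 fold change of -1.4 (SE 0.2, adjusted p = 0.00268 by edgeR).

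In further lower members the R libraries differed among themselves. The member at rank 48, on chromosome 4, had 562, 519, 497 and 483 FPKM in BR1 to BR4, against 1218, 920, 1237 and 1550 in R1 to R4, a log2 fold change of -1.45 (SE 0.19, adjusted p = 0.00219 by edgeR). BR was nearly level across its libraries, and all R libraries were above it. The member at rank 31, on chromosome 5, had 784, 619, 850 and 840 FPKM in BR1 to BR4, against 1419, 1164, 1795 and 2591 in R1 to R4, a log2 fold change of -1.37 (SE 0.25, adjusted p = 0.00751 by edgeR). Here R4 stood well above R2. The members at ranks 40 and 86, on chromosome 13, and at rank 55, on chromosome 4, had log2 fold changes of -1.2 (SE 0.29), -1.15 (SE 0.25) and -1.1 (SE 0.23), with edgeR adjusted p-values of 0.0215, 0.0132 and 0.0112. In each of them R4 was the highest and R3 the next, and R2 was the lowest of the R libraries. The member at rank 64, on chromosome 8, chosen after its values were seen for its even R libraries, had 480, 497, 530 and 560 FPKM in BR1 to BR4, against 854, 916, 748 and 909 in R1 to R4. Both groups were narrow, with a log2 fold change of -0.93 (SE 0.15, adjusted p = 0.00464 by edgeR). The members at ranks 11, 31 and 48 passed in all 21 alternatives. The member at rank 64 did so too, but it was picked for even R libraries, so its passes without R libraries carry no weight. Alternatives are not given for the members at ranks 40, 55 and 86.

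Glyma.12G218300, on chromosome 12 and at rank 66, was the single member higher in BR. It had 991, 876, 826 and 858 FPKM in BR1 to BR4, against 391, 504, 444 and 402 in R1 to R4. The groups were wide apart, at 888 ± 72 FPKM in BR and 435 ± 51.3 in R (SD, n = 4 each). Its log2 fold change was 0.84 (SE 0.15, adjusted p = 0.00677 by edgeR), and it passed in all 21 alternatives, with values of 0.77 to 1.03 and adjusted p-values up to 0.032.

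**Figure D3:**
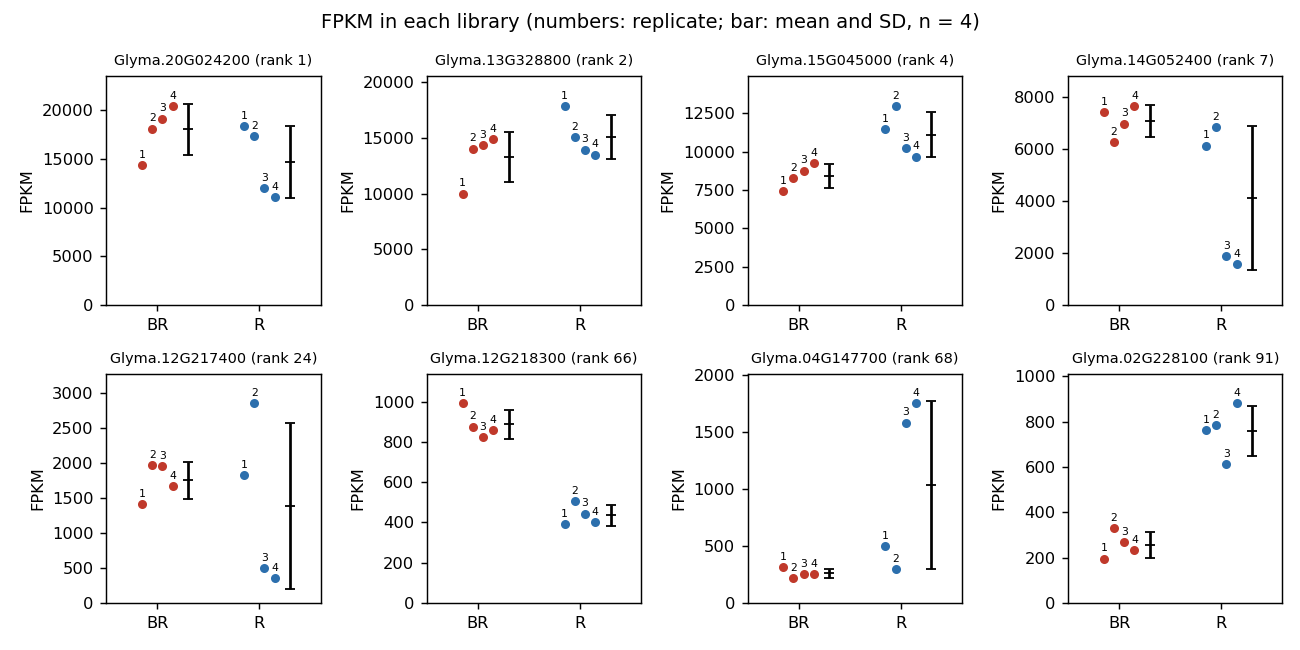
FPKM (y axis, from 0) in each library of 8 members, with BR left and R right; numbers give the replicate and bars the mean and SD (n = 4). Glyma.12G218300 and Glyma.02G228100 separate the groups, whereas Glyma.14G052400 and Glyma.12G217400 are low in R3 and R4 and Glyma.04G147700 is high in them.

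By FPKM, all BR libraries were below all R libraries in 14 members and above them in 7; over all tested genes these shares were 6.91% and 19.2%. On the TMM scale 24 members had BR below R throughout and 2 had BR above, against 13.1% and 11.4% of all tested genes. Of the 20 members called lower, 13 had no overlap by FPKM and 18 had none on the TMM scale. They were picked by a test on the TMM scale, so these counts carry no test. The share without overlap among all genes called lower is not given here.

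Several abundant transcripts differed mainly between R3 and R4 and the other libraries. R3 and R4 had the 2 lowest FPKM of the 8 libraries in 25 members and the 2 highest in 19, against 19.9% and 15% of all tested genes. In 8 members, chosen after their values were seen, all 6 other libraries were at least 1.5 times the higher of R3 and R4. The share of all tested genes with such a drop is not given, so the count does not set the members apart. Rises in R3 and R4 of that size occurred too, as in Glyma.04G147700, and their number is not given here. Glyma.14G052400, at rank 7, had 7409, 6273, 6968 and 7654 FPKM in BR1 to BR4, against 6123, 6846, 1884 and 1580 in R1 to R4. R1 and R2 were at the BR level, R3 and R4 far below it, and the group difference did not pass (log2 fold change 0.58, SE 0.45; edgeR adjusted p = 0.388). Its log2 fold change was 1.87 with R1 and R2 left out and -0.06 with R3 and R4 left out; these have no test here, since the member was picked for the drop in R3 and R4.

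The others of these 8 shared the low R3 and R4 but differed in which library was highest. Glyma.12G217400, at rank 24, had 1416, 1963, 1952 and 1669 FPKM in BR1 to BR4, against 1828, 2848, 498 and 358 in R1 to R4. Glyma.08G200200, at rank 25, had 1141, 2425, 1905 and 1366 FPKM in BR1 to BR4, against 1779, 3165, 455 and 269 in R1 to R4. In both, R2 was the highest library and R4 the lowest, so that a single group held both extremes. Glyma.01G028500, at rank 30 and on chromosome 1, had 2836, 1773, 1673 and 1527 FPKM in BR1 to BR4, against 936, 1446, 329 and 323 in R1 to R4. By FPKM it did not overlap between groups, while on the TMM scale it did. With a log2 fold change of 1.17 (SE 0.48) it had the largest positive value of the members without passing (edgeR adjusted p = 0.114). It passed in 5 of 21 alternatives, among them the fits without R2 and without both R1 and R2. Those fits are no test of it, since the member was picked for the drop in R3 and R4. Glyma.09G093000, at rank 98, had 424, 472, 802 and 886 FPKM in BR1 to BR4, against 488, 511, 178 and 141 in R1 to R4, with R1 and R2 above BR1 and BR2. Glyma.02G265200, at rank 5, and Glyma.08G200100 and Glyma.14G052300, the neighbours of members named above, complete the 8.

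The opposite order was seen among the members lower in BR, about as in all genes called lower. In 13 of the 20 (65%), R3 and R4 were the 2 highest of the 8 libraries, and in 2 R1 and R2 were. Among all 3054 genes called lower, R3 and R4 were the 2 highest in 53.6%. With R3 and R4 both left out, 11 members were lower and 1 higher, against 6.16% and 5.35% of all tested genes, and 7 of the 11 were among the 20. Leaving out both R1 and R2 gave 24 lower and 15 higher members, against 16.4% and 16.7% of all tested genes. The labels give no batch that would set R1 and R2 apart from R3 and R4, and a cause was not tested.

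**Figure D4:**
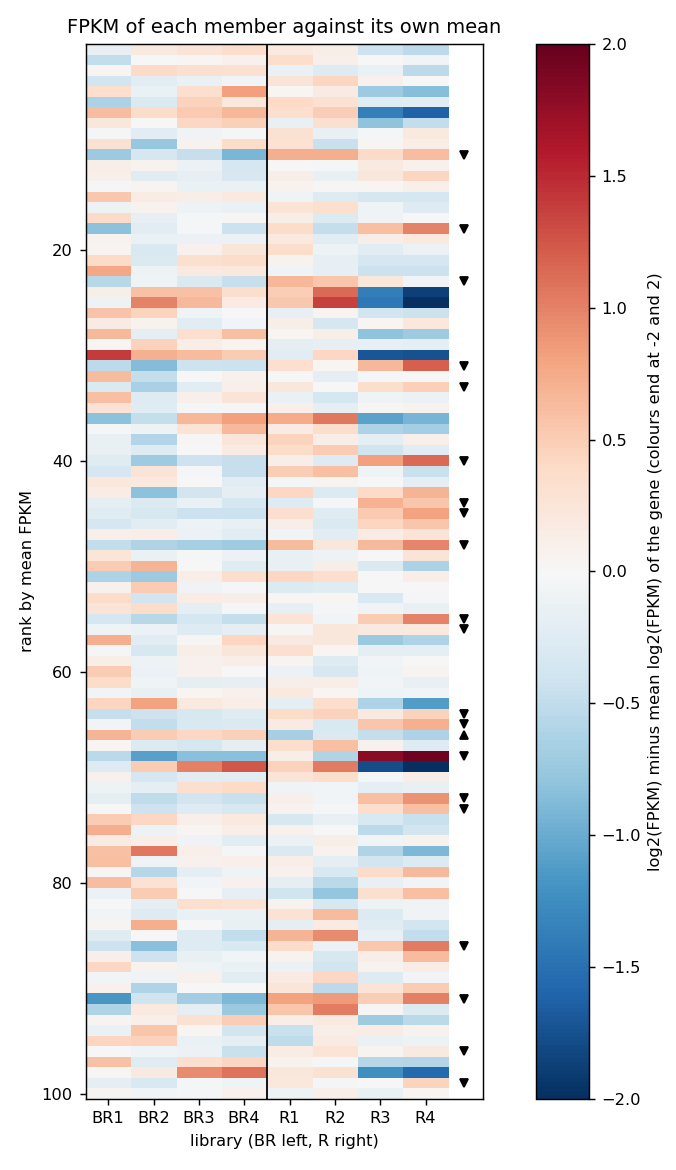
Each row is a member, by rank in mean FPKM, and each column a library (BR left, R right); colours give log2 FPKM minus the gene's mean over 8 libraries, and triangles at the right mark the 20 members called lower (pointing down) and the 1 called higher in BR (pointing up). The strongest colours stand in R3 and R4, in both directions.

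Some members lay near each other; how often other genes of the annotation do so was not compared. Counting places along each chromosome in the order of the identifiers, 20 members had another member within 10 places, in 13 pairs, and 8 of them were directly adjacent, in 4 pairs. Both members were called lower in 2 of the 13 pairs, those at ranks 48 and 55 on chromosome 4 and at ranks 23 and 65 on chromosome 13; both were uncalled in 9, and in 2 a member called higher stood beside an uncalled one. The pair Glyma.08G200100 and Glyma.08G200200 shared its lowest libraries: the first had 406, 691, 980 and 1152 FPKM in BR1 to BR4, against 674, 1001, 143 and 105 in R1 to R4, with R3 and R4 lowest as in its neighbour, but BR4 highest where its neighbour had R2. Glyma.12G217300, next to Glyma.12G217400, had 542, 689, 1515 and 1679 FPKM in BR1 to BR4, against 1597, 1990, 454 and 504 in R1 to R4. R2 was highest in both, and R3 and R4 were the lowest.

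The other adjacent pairs differed more. Glyma.14G052300, at rank 93 beside the member at rank 7, had 508, 523, 599 and 682 FPKM in BR1 to BR4, against 531, 551, 297 and 335 in R1 to R4, a milder drop in R3 and R4 than its neighbour's. Glyma.05G121600 and Glyma.05G121700, on chromosome 5, averaged 1901 ± 382 and 1297 ± 417 FPKM in BR, against 1441 ± 197 and 1153 ± 74 in R (SD, n = 4 each). Neither passed (edgeR adjusted p = 0.506 and 0.957). Adjacent genes can be near-identical copies, and no source used here says how reads that fit several copies were counted, so the levels of such neighbours are uncertain. Chromosome 8 held the most members, 13, then chromosome 13 with 10, which are also the chromosomes with the most tested genes (2078 and 2064), and chromosomes 2 and 10 with 8 each; no member lay on chromosome 16.

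The members were short, and the lower ones were the longer among them. Their median length was 1194.5 bases, against 1904 bases over all tested genes; FPKM divide by length, and 76 of the 100 were also among the 100 highest by counts not divided by length (CPM), where the lowest ranked 469. The 20 lower members had a median length of 1937.5 bases and the 79 uncalled members one of 998 bases. Of the 50 members above the median length, 17 were lower and 0 higher; of the 50 up to it, 3 were lower and 1 was higher. The median log2 fold changes were -0.42 and -0.07; with upper-quartile factors they were -0.32 and 0.04, and with total counts -0.22 and 0.12, so that the sign of the shorter members' median depended on the scaling. Over all tested genes cut at the same length, 11.1% of the longer ones were lower and 6.7% higher, and of the shorter ones 7.03% were lower and 13.9% higher. This division by length was chosen after seeing the data.

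The libraries also differed in how counts depended on gene length. The slope of log2 CPM against log2 gene length, taken over all tested genes, as a difference from the average library, was -0.148, 0.0145, -0.0102 and -0.066 in BR1 to BR4, against -0.0455, -0.0362, 0.143 and 0.148 in R1 to R4. R3 and R4 thus held relatively more reads of long genes than any other library, and BR1 the fewest. With R3 and R4 both left out, 10 of the 50 longer members and 1 of the 50 shorter ones were lower, with median log2 fold changes of -0.37 and -0.11. With R1 and R2 dropped instead, 19 of the longer and 5 of the shorter members were lower, with medians of -0.25 and -0.01. Without R3 and R4, 0 of the longer and 1 of the shorter members were higher, and without R1 and R2, 6 and 9 were. Shares of all tested genes by length are not given for these fits. Whether the length slopes bear on the calls was not tested.

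**Figure D5:**
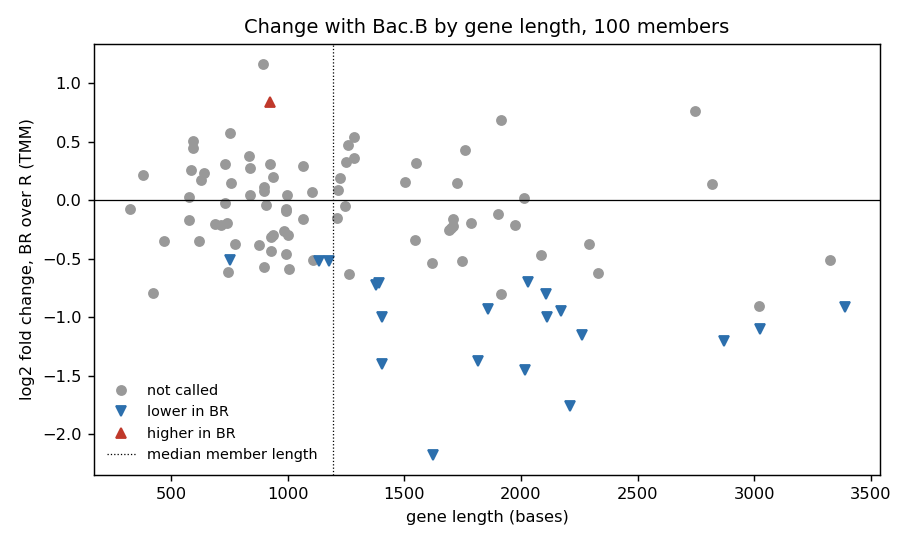
Log2 fold change of BR over R with TMM scaling (y axis) against gene length in bases (x axis) for the 100 members, marked by call; the dotted line is the median length of 1194.5 bases. Of the 20 members called lower, 17 lie to the right of the line.

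The spread of FPKM within a group was somewhat narrower for the members than for genes at large. It includes counting error, which is larger for genes with few counts. The square root of the dispersion in the edgeR quasi-likelihood fit leaves counting error out. It had a median of 24.8% over the members and 26% over all tested genes. That dispersion is a trend fitted along expression level and not each gene's own scatter, so it does not measure the members' spread. The coefficient of variation (SD over mean) of FPKM within a group had a median of 15.9% in BR and 18.4% in R over the members, against 18.1% and 23.5% over all tested genes. It was larger in R than in BR in 59 of 100 members, against 65% of all tested genes. Over all 8 libraries it ran from 6.09% to 98.6%, with a median of 24.7%. The 3 most variable members, Glyma.04G147700 (98.6%), Glyma.08G200200 (62.1%) and Glyma.08G200100 (61.6%), all had R3 and R4 at one end of their range.

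The 3 steadiest members stood at very different ranks. Glyma.18G041100, at rank 100, had 497, 462, 471 and 510 FPKM in BR1 to BR4, against 445, 514, 437 and 493 in R1 to R4, a coefficient of variation of 6.09%. Glyma.02G017100, at rank 14, had 1998, 2123, 1868 and 1854 FPKM in BR1 to BR4, against 2146, 2078, 2105 and 2198 in R1 to R4, or 6.24%. Glyma.08G076800, at rank 62, varied by 7.72% around a mean of 697 FPKM. The groups overlapped by FPKM in each, although on the TMM scale each BR library of Glyma.02G017100 was below each R library, and DESeq2 called it lower (adjusted p = 0.0167). In the main test none passed (edgeR adjusted p = 0.459, 0.159 and 0.29); their low spread is on the FPKM scale, and a p that misses the threshold does not show that their levels were equal.

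Membership itself depended on the library. Of the 100 members, 61 were among the 100 highest of every single library (leghemoglobins left out), and 165 genes were among the 100 highest of at least 1. The single libraries placed 87, 84, 92 and 90 of the members in their own first 100 in BR1 to BR4, against 92, 88, 81 and 81 in R1 to R4. Ranking by the BR mean or by the R mean alone kept 92 members each, and these lists shared 84 genes. The boundary of the selection is not sharp: ranks 99 and 100 had means of 485 and 479 FPKM, and the genes just outside, Glyma.11G123300 and Glyma.15G262100, had 468 and 464 FPKM, so that the last member was 1.02 times the gene after it. The member at rank 99 was called lower (log2 fold change -0.52, SE 0.16; edgeR adjusted p = 0.0455) and lost the call in 16 of 21 alternatives.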

How the data were processed

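RNA from soybean nodules, extracted with Trizol, was made into libraries with a VAHTS Universal V6 kit, per the labels' protocols. The authors deposited raw read counts per gene and FPKM, 1 column per library. Per the submitters' processing notes, tools used were HTSeq 0.6.0, TopHat2, CASAVA, HISAT2 2.1.0 and Bowtie2 2.2.3, with no role or order; the genome build and the strandedness of the counting are not given in the sources used here. Gene length was computed as deposited count over FPKM and library total, which gave a single length per gene in all libraries; deposited FPKM thus carry no composition factor. None of the 43517 identifiers matched the reference table (Glycine_max_v4.0), so the lists by gene function and the other markers of cell type could not be applied.

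BR and R were compared in R 4.3.3 with edgeR 4.0.16 (filterByExpr with minimum count 10 and total 15, TMM, quasi-likelihood F test, no covariates, adjusted p below 0.05 by Benjamini-Hochberg over 29508 genes). SE is the log2 fold change over the square root of F. The fit was tested on simulated data. No 2 libraries agreed within sampling noise (chi-square over degrees of freedom at least 6.76), so none were merged. Alternatives were other factors and filters, DESeq2 1.42.0, limma 3.58.1, a block on replicate number, libraries left out, and other choices of members. The rule for named members took the 10 highest by level, the largest changes, the 3 steadiest and 3 most variable, and those at the boundary; neighbours and members low in R3 and R4 were added after their values were seen. Members and lists were chosen with earlier results of these data known. Python 3.11.15 was used for summaries.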

Additional observations from a re-analysis of the deposited data

Results flagged for a closer look

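In 64 groups of 4 libraries, those of the named members and of the library shares, the highest and lowest library were compared with the others; chance flags about 1 in 20 groups. For Glyma.05G121600, BR2 stood far below the other BR libraries, with 1331 FPKM where they had 2031 to 2124 FPKM. The leghemoglobin share of the summed FPKM was 14.9% in R1, where the other R libraries had 10.7% to 11%.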

How the results depend on the processing

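The members' tendency to be lower in BR kept its direction in all settings tried, in that more were lower than higher, while the counts moved. Of the 21 members called, 20 lower and 1 higher, upper-quartile factors left 13 lower, total counts 12 lower and 3 higher, and both took the median log2 fold change to -0.1 and -0.01. DESeq2 called 33 (24.4% of all genes, against 18.3% in the main test), of which 3 were higher, and kept all 20. Of all genes it called 13.4% lower and 11% higher. With limma on log2(FPKM + 1) 9 were called, 7 lower and 2 higher, where 3.67% of all genes were lower and 11.1% higher. A pseudocount of 0.1 gave 8 called, 7 lower and 1 higher, against 3.79% and 10.9% of all genes. In both, 14.7% of all genes were called. Above a mean of 1 FPKM 12 were lower and 4 higher, against 6.58% and 17.1% of all genes (23.7% called). At an adjusted p of 0.01, 6 were called, 5 of them lower (5.22% of all genes called, 3.03% lower and 2.19% higher). At 2-fold 9 were called, all lower and 0 higher (8.65% of all genes called, 4.61% lower and 4.04% higher). Leaving out 1 library gave 9 to 26 called, 8 to 23 lower and 1 to 3 higher, where 9.55% to 24.4% of all genes were called. Of all genes, 5.16% to 12.9% were then lower and 4.29% to 11.5% higher. Without R1 and R2, 39 were called, 15 higher, with a median of -0.08 (33.2% of all genes called, 16.4% lower and 16.7% higher). Without R3 and R4, 12 were called, 11 lower (11.5% of all genes called, 6.16% lower and 5.35% higher). Over 50 members 9 were called, 9 lower and 0 higher, and over 200, 46 were, 44 lower and 2 higher. In the same fit 18.3% of all tested genes were called, 10.3% lower and 7.98% higher. Choosing the 100 by CPM or by median FPKM moved no count by over 1.5 times. The share held was 19.9% in BR and 20.4% in R by counts, and 36.6% in BR and 36.4% in R with the leghemoglobins added.

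The replicate numbers are shared by BR and R, but same-numbered libraries did not deviate together (correlations of -0.0836 to 0.0903), and replicate 4 alone correlated best with its own number. The fit with the replicate number as a block called 20 members, 17 lower and 3 higher, and kept 15 of the 20 lower in the main test. Of all genes 15.7% were called, 8.74% lower and 6.96% higher. Depth limits no member, since each had at least 1978 counts per library; 4 libraries a group, and the distance of R1 and R2 from R3 and R4, limit the precision.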
